A study of Homo sapiens with 4 samples.

Results

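The genes described here are MYC, its partner MAX and 29 genes that MYC is known to drive, most of them needed to build ribosomes. They were taken by symbol from a fixed list of 31, chosen with earlier results of these data known. Of the 31 genes 30 had a row among the 27106 genes of the deposited table of normalised counts. FBL, the snoRNA-guided rRNA methylase fibrillarin, is not analysed here. All 30 passed the filter on low values, a mean normalised count of at least 10, which left 19398 genes in the test.

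The samples were total RNA from THP-1, an established human cell line grown from an acute monocytic leukaemia and carrying the MLL-AF9 fusion. All 4 samples had been transfected with an antisense oligonucleotide (ASO), a short designed strand used to lower the RNA it matches, and are labelled day 5. In the knockdown group (2 libraries) the ASO targeted SGOL1-AS1, a long noncoding RNA, and in the non-targeting group (2 libraries) it had no target. The table heads 2 of its columns with a code found in none of the labels. Those columns were assigned to the knockdown by elimination, the remaining columns being headed non-targeting, and are numbered here in column order. Only 1 targeting oligonucleotide is labelled, so loss of the target and other effects of that oligonucleotide cannot be told apart. Whether libraries of a group come from separate cultures is not labelled, so the p-values measure the spread between these libraries, which may be technical.

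The knockdown libraries held 48558537 and 41435922 gene reads and the non-targeting libraries 50855150 and 51851314. SGO1-AS1, the current symbol of the target, had 12 and 17 reads in the knockdown libraries and 24 and 21 in the non-targeting libraries. Its log2 fold change of -0.48 ± 0.37 (SE) was not called (limma, adjusted p = 0.555), so the target gives no check of the group labels. Of 14 monocyte markers all had a row, with LYZ between 36975 and 40116 normalised counts in the 4 libraries, while the highest value was 110.4 for CD14 and 21.6 for CD68. Summed, the monocyte markers held 118194 to 122076 normalised counts in the knockdown libraries and 121857 to 128757 in the non-targeting libraries. By limma 3 of them (CD4, FCGR1A and TYROBP) were lower in the knockdown, and 8 of the 14 had an unadjusted p under 0.05. The latter held for 17.2% of all tested genes. Erythroid and megakaryocyte markers summed to 48.9 and 60.4 in the knockdown libraries and 56.7 and 47.0 in the non-targeting libraries, with 3 of 13 holding a row. Epithelial and fibroblast markers summed to 288.7 and 318.2 in the knockdown against 325.5 and 281.3 in the non-targeting group, with 3 of 10 holding a row. Lymphocyte markers, with 6 of 10 holding a row, summed to 4399 and 4853 in the knockdown against 6279 and 6062 in the non-targeting group, and PAX5, which was lower in the knockdown, made up most of these sums. In bulk RNA, fewer cells of a type and less RNA per cell cannot be told apart. The part of these marker differences in the results below was not tested.

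MYC is a transcription factor that binds DNA as a pair with MAX, mostly at the E-box letters CACGTG, and raises the output of genes for growth. Among its best known targets are the genes of ribosome biogenesis: RNA polymerase I, which transcribes the rRNA precursor in the nucleolus, the enzymes and small nucleolar RNA (snoRNA) particles that modify it, and the factors that cut and fold it into the small and large subunits. In leukaemia cells with MLL fusions MYC is known as part of the growth programme. Normalised counts are relative to each library, so a change shared by nearly all transcripts would not appear in them.

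MYC RNA differed less between the groups than between libraries of a group. MYC (ENSG00000136997, on chromosome 8) had 11423 and 10479 normalised counts in the knockdown libraries, against 11583 and 10327 in the non-targeting libraries. The 2 knockdown values lay between the 2 non-targeting values, so the groups overlapped, and the libraries of one group differed by more than the group means, 10951 ± 667 in the knockdown and 10955 ± 888 in the non-targeting group (SD, n = 2 each). The log2 fold change, knockdown minus non-targeting on log2(normalised count + 1), was 0.00 ± 0.06 (SE), with a 95% interval of -0.12 to 0.12 (limma, adjusted p = 0.999). MAX, which MYC needs to bind DNA, had 5814 and 5874 normalised counts in the knockdown libraries and 5991 and 5891 in the non-targeting libraries. Both knockdown values of MAX lay below both non-targeting values by a small margin, and its log2 fold change of -0.02 had an interval of -0.13 to 0.08 (limma, adjusted p = 0.867).

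Across the whole set 2 of the 30 genes fell, RRP12 and TFRC, and 0 rose (limma, adjusted p under 0.05 over 19398 genes). Of all tested genes 4.25% were called, 3.4% as lower and 0.851% as higher. At an unadjusted p under 0.05 the members numbered 4 of 30, against 17.2% of all tested genes. By edgeR 1 member, RRP12, was called lower and 0 higher, where 2.87% and 0.82% of all tested genes were (3.69% in all). By DESeq2 RRP12 was again the 1 lower call, with 0 higher, against 1.95% and 0.34% of all tested genes (2.29% in all). DESeq2 gave no adjusted p for some genes of low count, NOP2 among them, and here and below these stand as not called. The median log2 fold change of the 30 was -0.003, with 15 values below and 15 above 0, beside a median of -0.01 over all tested genes. Most members are abundant. Over the 5178 tested genes with a mean of at least 2000 the median was -0.037, and 67.3% of values lay below 0. Of those genes 1217 had an unadjusted limma p under 0.05. The knockdown values lay below both non-targeting values in 8 members and above both in 7. The same held for 25.1% and 21.6% of all tested genes (46.7% in all). Among the 5178 tested genes with a mean of at least 2000 it held for 1905 and 745.

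**Figure D1:**
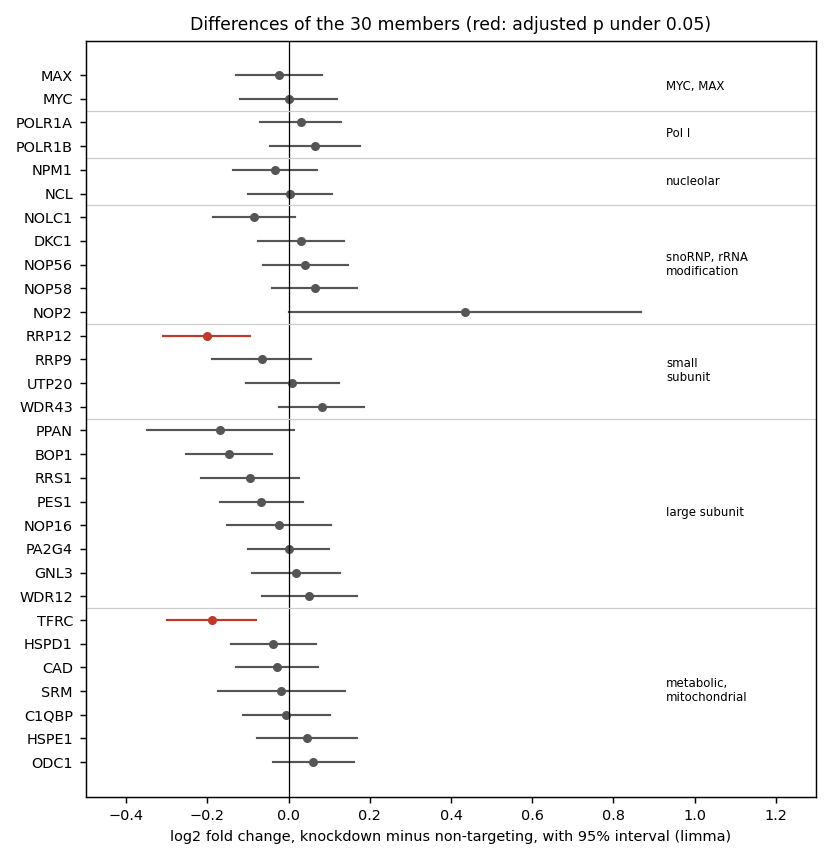
Log2 fold change (x axis, knockdown minus non-targeting, limma on log2(normalised count + 1)) of each of the 30 members with its 95% interval, grouped by role, red where the adjusted p is under 0.05. RRP12 at -0.20 and TFRC at -0.19 are the red points, MYC lies at 0.00, and NOP2, a gene with few counted reads, has the widest interval.

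The limma intervals describe the difference between these libraries, with a spread pooled over genes. They set no limit on a change between separate cultures. For 26 of the 30 members the whole 95% interval lay within a 1.2-fold change in either direction. The same was so for 37.0% of all tested genes, most of which have fewer reads: the median member had a mean of 7620 normalised counts, the median tested gene 388. The 4 members whose interval went past 1.2-fold were RRP12, TFRC, PPAN and NOP2. The interval of SRM lay within 1.2-fold, although its non-targeting libraries alone had 8334 and 6745 normalised counts. All these intervals use the size factors of the authors. With the same total in every library the median of all tested genes moved by 0.057. A member's median distance from 0 was 0.0433 on the log2 scale, beside 0.0613 over the 5178 tested genes with a mean of at least 2000, of which 7.9% were called, 7.2% as lower.

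**Figure D2:**
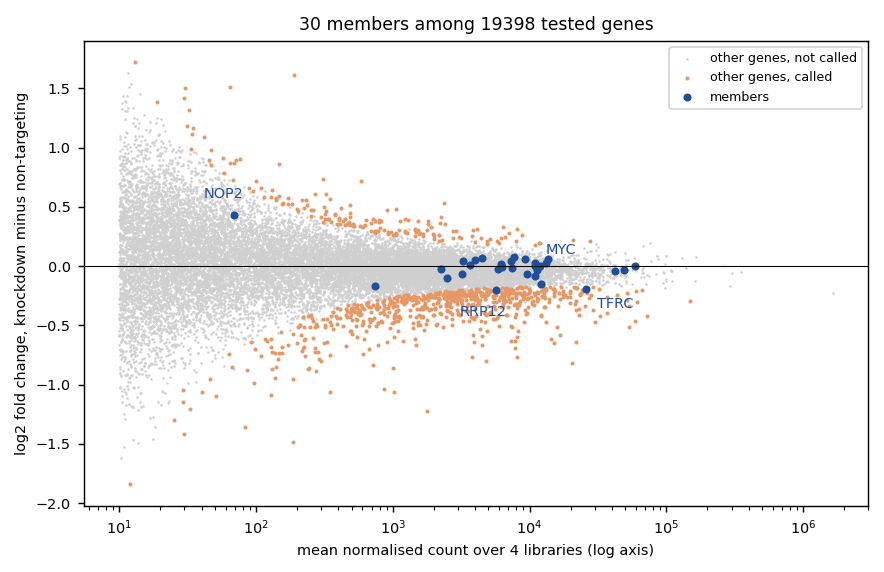
Mean normalised count over the 4 libraries (x axis, log) against log2 fold change (y axis, knockdown minus non-targeting) for 19398 tested genes, with called genes in orange and the 30 members in blue. Apart from NOP2 the members lie between -0.20 and 0.08, mostly among the abundant genes, where the called genes are mainly lower in the knockdown.

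The promoters of these genes carried the E-box letters often, which is known of MYC targets and was not used to choose them here. RefSeq promoter windows on GRCh38.p14, from 250 bases before to 50 bases after each gene's start, were matched by symbol to 25 of the 31 listed genes, and CACGTG, which reads the same on both strands, was in a window of 11 of the 25 (44.0%). It was in 35 of 134 matched genes of 5 further ribosome biogenesis lists (26.1%) and in 1416 of the 11816 tested genes with a window (12.0%). Of all 35116 windows 7.26% held it. The stretches below show the motif in capitals with up to 18 bases on each side, 5′ to 3′ on the strand of the gene, for 9 promoters, to let the flanks be compared.
SRM: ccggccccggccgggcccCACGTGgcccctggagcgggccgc
ODC1, upstream copy: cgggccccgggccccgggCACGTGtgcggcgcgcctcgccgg
ODC1, downstream copy: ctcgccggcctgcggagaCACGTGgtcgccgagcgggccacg
WDR43: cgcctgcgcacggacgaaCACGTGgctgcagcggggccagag
HSPE1: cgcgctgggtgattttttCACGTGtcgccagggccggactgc
RRP9: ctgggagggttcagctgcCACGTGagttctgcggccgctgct
GNL3: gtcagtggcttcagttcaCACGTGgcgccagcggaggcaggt
UTP20: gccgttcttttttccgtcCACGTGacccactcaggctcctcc
PES1: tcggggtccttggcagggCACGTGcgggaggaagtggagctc
NOP2: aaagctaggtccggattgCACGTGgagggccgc
The first base of the motif stood 199 bases before the start of SRM, 29 before that of ODC1 with a further copy from base 6 after the start, 10 before UTP20 and 5 before RRP9. It began at base 4 after the start of WDR43, base 7 of GNL3, base 14 of PES1 and base 36 of NOP2. These stretches lie at chr1:11060194-11060235 (SRM, minus strand), chr2:10448018-10448059 and chr2:10447984-10448025 (ODC1, minus), chr2:28894652-28894693 (WDR43, plus), chr2:197500339-197500380 (HSPE1, plus), chr3:51941886-51941927 (RRP9, minus), chr3:52686020-52686061 (GNL3, plus), chr12:101280077-101280118 (UTP20, plus), chr22:30591874-30591915 (PES1, minus) and chr12:6568242-6568274 (NOP2, minus).

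Members with and without the motif had medians near 0. The 10 tested members with CACGTG had a median log2 fold change of 0.01 with 0 called, and the 14 without it a median of -0.003 with 1 called lower. Over all tested genes with a window, those with the motif had a median of -0.03 and 4.59% called, and those without it -0.02 and 4.98%. A match of letters in this window is a description and does not show binding.

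RNA polymerase I transcribes the rRNA precursor. POLR1A, its largest subunit, had 13343 and 13469 normalised counts in the knockdown libraries and 13220 and 13041 in the non-targeting libraries. POLR1B, the other catalytic subunit, had 4562 and 4701 in the knockdown against 4446 and 4407 in the non-targeting group. In both genes the knockdown values lay just above the non-targeting values, with log2 fold changes of 0.03 and 0.07 whose intervals, -0.07 to 0.13 and -0.04 to 0.18, included 0. Of 16 further polymerase I subunits and factors 0 were called by limma, edgeR or DESeq2, and 2 had an unadjusted limma p under 0.05. UBTF, which opens rRNA genes for the polymerase, was at 0.00 on the log2 fold change scale, TCOF1 (treacle) at -0.12 (limma, adjusted p = 0.225) and the subunit POLR1F at -0.19 (adjusted p = 0.108). The initiation factor RRN3 had the highest value of the list, 0.57, on a count of 21.1 to 35.5 in the 4 libraries (adjusted p = 0.331).

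NCL and NPM1, the nucleolar proteins nucleolin and nucleophosmin, were among the most abundant members. Nucleolin RNA stood at 56987 and 60633 normalised counts in the knockdown libraries and at 57997 and 59330 in the non-targeting libraries. NPM1, a nucleolar chaperone often mutated in acute myeloid leukaemia, stood at 47629 and 50057 in the knockdown against 48685 and 51295 in the non-targeting group. The groups overlapped in both genes, and the log2 fold changes were 0.00 (-0.10 to 0.11) and -0.03 (-0.14 to 0.07). Per kilobase of annotated exon, NPM1 had the highest level of the 30, 12760 normalised counts in the knockdown and 13059 in the non-targeting group, ahead of HSPD1 with 9782 in the knockdown and 10035 in the non-targeting group and NCL with 8488 in the knockdown and 8466 in the non-targeting group. MYC itself stood at 3649 per kilobase in the knockdown and 3651 in the non-targeting group. NPM1 has 45 named pseudogenes in GENCODE 29, and the 18 of them with a row summed to 1071 and 1129 normalised counts in the knockdown libraries and 1112 and 1162 in the non-targeting libraries, so reads could have been split between copies.

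snoRNA particles guide the modification of rRNA. NOP56 and NOP58, core proteins of the C/D box particles that methylate rRNA, had 7350 and 7597 (NOP56) and 9269 and 9673 (NOP58) normalised counts in the knockdown libraries, against 7245 and 7282 (NOP56) and 8918 and 9202 (NOP58) in the non-targeting libraries. The knockdown values of both genes lay above the non-targeting values, by log2 fold changes of 0.04 and 0.06 that did not pass the test (limma, adjusted p = 0.745 and 0.567). DKC1, the pseudouridine synthase of the H/ACA particles, had 10634 and 11375 in the knockdown against 10537 and 11012 in the non-targeting group, with overlap. NOLC1, a chaperone of snoRNA particles, had 10516 and 10903 in the knockdown against 11294 and 11414 in the non-targeting group, lower in both knockdown libraries by a log2 fold change of -0.08 (adjusted p = 0.398).

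NOP2, an rRNA methylase of the large subunit, stood apart in level. It had 90.1 and 69.6 normalised counts in the knockdown libraries and 62.4 and 54.6 in the non-targeting libraries, higher in both knockdown libraries with a log2 fold change of 0.43 ± 0.21 (SE; limma, adjusted p = 0.291). In GENCODE 29 another coding gene on the same strand, ENSG00000285238, shares 54.4% of the exonic bases of NOP2, and it is not analysed here. The sources do not say how reads in shared exons were counted, so the values of NOP2 may hold only a part of its reads. Shared exons were looked up for the members only. Low values of other genes named here, such as CD68 and RRN3, may thus also be partial.

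The same particles depend on snoRNAs, many of which are cut from introns of these very genes. GENCODE 29 places 26 snoRNA genes inside the spans of the 31 listed genes on the same strand, and 15 of them had a row and 13 passed the filter, in NCL, NOP58, WDR43, GNL3, PPAN and ODC1. By limma and by edgeR 0 of the 13 were called over all tested genes, 1 had an unadjusted p under 0.05, and their log2 fold changes ran from -0.29 to 0.77. That 1 was SNORD19 (chr3:52689248-52689315, plus strand), which lies within the span of GNL3. It had 46 and 44 reads in the knockdown libraries and 29 and 28 in the non-targeting libraries, with no overlap between the groups and a log2 fold change of 0.77 ± 0.27 (SE; limma, adjusted p = 0.11), while its host GNL3 was at 0.02. SNORD20 within NCL had 48.9 and 46.8 normalised counts in the knockdown libraries against 54.7 and 48.9 in the non-targeting libraries, and SNORD70 in NOP58 had 31.6 and 27.4 in the knockdown against 36.5 and 35.8 in the non-targeting group. The median mean count of the 13 was 23.2, so modest changes in these rows were not detectable. Whether the few reads come from finished snoRNAs or from the introns that hold them was not tested.

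**Figure D3:**
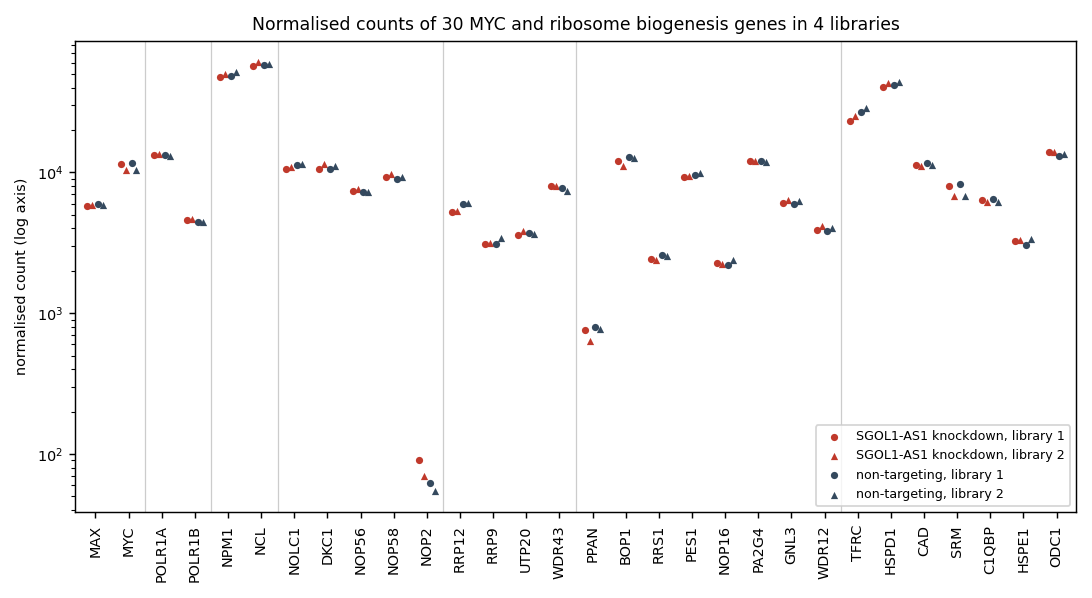
Normalised counts (y axis, log) of the 30 members in each of the 4 libraries, knockdown in red left of non-targeting in blue, grouped by role from MYC and MAX on the left to the metabolic and mitochondrial genes on the right. In most genes the 4 points lie nearly level, the knockdown points of RRP12 and TFRC lie below the non-targeting points, and NOP2 lies far below the other members in all 4 libraries.

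The small subunit processome, the large complex that folds the first part of the rRNA precursor, was represented by 4 members, of which RRP12 fell. RRP12 (ENSG00000052749, chr10:97356358-97426076 on the minus strand in GENCODE 29, GRCh38), a factor for export and maturation of pre-ribosomes known from yeast, had 5212 and 5283 normalised counts in the knockdown libraries and 5998 and 6074 in the non-targeting libraries. The groups did not overlap, and the libraries within a group were close, with means of 5247 ± 49.9 in the knockdown and 6036 ± 53.5 in the non-targeting group (SD, n = 2 each). The log2 fold change was -0.20 ± 0.05 (SE; limma, adjusted p = 0.0238), a difference of -13.1%. RRP12 was also called by edgeR (adjusted p = 0.0357) and DESeq2 (adjusted p = 0.0457). Its call ended without either non-targeting library (adjusted p = 0.185 without library 1 and 0.207 without library 2), where the log2 fold change was -0.21 and -0.19. It also ended with the same median in every library (adjusted p = 0.0516), after quantile normalisation (0.101), with the same total in every library (-0.15, adjusted p = 0.114) and in limma without the variance trend (0.378).

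The other 3 processome members did not pass the test. RRP9, a U3 snoRNA protein, had 3087 and 3150 normalised counts in the knockdown libraries and 3121 and 3412 in the non-targeting libraries, with overlap. UTP20 had 3596 and 3821 in the knockdown against 3691 and 3674 in the non-targeting group, also with overlap. WDR43, which links transcription by polymerase I to processing, had 7955 and 8001 in the knockdown against 7732 and 7352 in the non-targeting group, higher in both knockdown libraries with a log2 fold change of 0.08 (-0.02 to 0.19; limma, adjusted p = 0.439). In a list of 46 further tested processome genes 0 were called by limma, edgeR or DESeq2, and 5 had an unadjusted limma p under 0.05. Values ran from RRP36 at -0.16 (limma, adjusted p = 0.157) to DDX47 at 0.26 (adjusted p = 0.669), with a list median of 0.01. DDX47 had a low count, from 42.2 to 73.8 normalised counts in the 4 libraries.

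The 8 members that assemble the large subunit did not pass the test either. PES1, BOP1 and WDR12 form the PeBoW complex, which is needed to process the rRNA of the large subunit. BOP1 had 11990 and 11138 normalised counts in the knockdown libraries and 12865 and 12720 in the non-targeting libraries, without overlap and with a log2 fold change of -0.15 ± 0.05 (SE; limma, adjusted p = 0.114). PES1 had 9202 and 9401 in the knockdown against 9580 and 9909 in the non-targeting group, at -0.07 (adjusted p = 0.534), and WDR12 had 3926 and 4175 in the knockdown against 3807 and 4013 in the non-targeting group, at 0.05 (adjusted p = 0.713). The 3 subunits of the complex thus had values on both sides of 0, and their pairwise differences were not tested. Without knockdown library 1 BOP1 was called lower, at -0.20 (adjusted p = 0.0125), and without knockdown library 2 it stood at -0.09 (adjusted p = 0.405).

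RRS1, which brings the 5S rRNA particle to the pre-ribosome in yeast, had 2442 and 2396 normalised counts in the knockdown libraries against 2604 and 2564 in the non-targeting libraries, lower in both knockdown libraries at a log2 fold change of -0.10 (limma, adjusted p = 0.426). PPAN, the human relative of yeast Ssf1, had 754.7 and 637.5 in the knockdown against 792.3 and 766.7 in the non-targeting group, at -0.17 (-0.35 to 0.01; adjusted p = 0.335). That value rests on the knockdown libraries unequally, being -0.29 without knockdown library 1 (limma, adjusted p = 0.053) and -0.05 without knockdown library 2 (adjusted p = 0.869). The readthrough gene PPAN-P2RY11, not analysed here, shares 56.0% of the exonic bases of PPAN on the same strand, so its count is uncertain. NOP16, GNL3 (nucleostemin) and PA2G4 (EBP1, a growth regulator found on pre-ribosomes) overlapped between the groups, at -0.02, 0.02 and 0.00. PA2G4, with MYC the closest to 0 among the members, had 11950 and 11974 normalised counts in the knockdown libraries and 12054 and 11862 in the non-targeting libraries. Of 52 further tested large subunit genes 0 were called by limma and by DESeq2, 1 was called higher by edgeR, and 5 had an unadjusted limma p under 0.05. Values ran from EIF6 at -0.16 (adjusted p = 0.181) to NOL12 at 0.32 (adjusted p = 0.226 by limma), with a list median of -0.01. The edgeR call was MDN1, an ATPase that strips factors from large subunit precursors in yeast, named here after its values were seen. It had 26532 and 26409 normalised counts in the knockdown libraries and 23814 and 23746 in the non-targeting libraries. Its log2 fold change was 0.15 ± 0.05 (SE), with an adjusted p of 0.0666 by limma and 0.0471 by edgeR. In limma MDN1 was called higher after quantile normalisation (0.215, adjusted p = 0.00802) and with the same total (0.212, adjusted p = 0.0115). Robust empirical Bayes in limma also called it (adjusted p = 0.0361).

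TFRC was the one member outside the nucleolus to fall. TFRC (ENSG00000072274, chr3:196027183-196082189 on the minus strand), the transferrin receptor that carries iron into the cell, had 23174 and 25301 normalised counts in the knockdown libraries and 26650 and 28621 in the non-targeting libraries. The groups did not overlap, and their means were 24238 ± 1504 in the knockdown and 27635 ± 1394 in the non-targeting group (SD, n = 2 each). The log2 fold change was -0.19 ± 0.05 (SE; limma, adjusted p = 0.043), a difference of -12.3%. The call was not made by edgeR (adjusted p = 0.059) or DESeq2 (adjusted p = 0.0881), and it ended without knockdown library 1 (-0.13, adjusted p = 0.179), non-targeting library 1 (-0.24, adjusted p = 0.082) or non-targeting library 2 (-0.14, adjusted p = 0.466). In limma it also ended with a minimum mean of 50 (adjusted p = 0.0583), the same median (0.0788), quantile normalisation (0.122), the same total (0.165) and no variance trend (0.481).

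The promoter window of TFRC (GRCh38.p14, chr3:196082041-196082340, minus strand), the called member with a window, held 0 copies of CACGTG and is shown whole, beside the window of HSPE1 (chr2:197500129-197500428, plus strand), where the motif in capitals is shared with the gene on the other strand.
TFRC: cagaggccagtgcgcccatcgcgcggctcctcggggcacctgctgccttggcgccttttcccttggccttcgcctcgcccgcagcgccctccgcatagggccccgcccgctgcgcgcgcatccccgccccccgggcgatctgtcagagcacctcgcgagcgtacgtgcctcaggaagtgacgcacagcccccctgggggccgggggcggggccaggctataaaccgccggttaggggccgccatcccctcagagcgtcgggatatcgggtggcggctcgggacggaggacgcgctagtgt
HSPE1: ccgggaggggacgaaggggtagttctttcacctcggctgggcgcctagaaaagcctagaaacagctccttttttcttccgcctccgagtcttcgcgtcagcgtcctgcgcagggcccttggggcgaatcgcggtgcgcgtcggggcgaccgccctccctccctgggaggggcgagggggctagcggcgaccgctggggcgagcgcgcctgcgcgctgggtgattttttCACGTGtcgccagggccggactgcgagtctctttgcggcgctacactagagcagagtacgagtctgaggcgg

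HSPD1 and HSPE1 encode the partner chaperonins HSP60 and HSP10 of mitochondria and face away from each other on chromosome 2. The single E-box of this stretch (chr2:197500357-197500362) lies 88 bases before the start of HSPD1 and 22 before that of HSPE1. HSPD1 had 40216 and 42836 normalised counts in the knockdown libraries and 41614 and 43584 in the non-targeting libraries, and HSPE1 had 3281 and 3325 in the knockdown against 3051 and 3356 in the non-targeting group. The groups overlapped in both genes, with log2 fold changes of -0.04 (-0.14 to 0.07) and 0.05 (-0.08 to 0.17). Annotated exons of the pair overlap by 281 bases on opposite strands. In addition 17 and 26 pseudogenes carry their names, so their reads may be split between copies. The 8 with a row for HSPD1 summed to 465.1 and 459.6 normalised counts in the knockdown libraries and 436.0 and 429.9 in the non-targeting libraries. The 12 with a row for HSPE1 summed to 164.0 and 144.8 in the knockdown against 105.6 and 112.0 in the non-targeting group.

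The metabolic members other than TFRC lay close to 0. ODC1, which makes putrescine in the first step of polyamine synthesis, had 13926 and 13873 normalised counts in the knockdown libraries and 13106 and 13542 in the non-targeting libraries, higher in both knockdown libraries at a log2 fold change of 0.06 (-0.04 to 0.16; limma, adjusted p = 0.569). SRM, the next enzyme, had 8005 and 6849 in the knockdown against 8334 and 6745 in the non-targeting group. The spread within each group exceeded the difference between the means, 7427 ± 818 in the knockdown and 7539 ± 1124 in the non-targeting group (SD, n = 2 each). CAD, the enzyme of the first steps of pyrimidine synthesis, had 11281 and 11080 in the knockdown against 11577 and 11225 in the non-targeting group and overlapped, as did C1QBP, a mitochondrial matrix protein, with 6335 and 6191 in the knockdown against 6435 and 6145 in the non-targeting group.

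Genes around these enzymes were described from lists chosen by function, with earlier results of these data known. In polyamine metabolism 1 of 13 tested genes rose and 0 fell by limma and by edgeR, and 0 were called by DESeq2. It was MTAP, which salvages the by-product of spermidine synthesis, with 1378 and 1328 normalised counts in the knockdown libraries and 1040 and 1183 in the non-targeting libraries (limma, log2 fold change 0.29 ± 0.07 SE, adjusted p = 0.0263). This call on MTAP was not made by DESeq2 (adjusted p = 0.0697) and ended without non-targeting library 1 (0.19, limma adjusted p = 0.463) and without the variance trend (adjusted p = 0.4). Of the 13 polyamine genes 4 had an unadjusted limma p under 0.05, beside 17.2% of all tested genes. In the next 3 lists 0 genes were called by limma, edgeR or DESeq2. Of 26 nucleotide synthesis genes 0 had an unadjusted limma p under 0.05, with a range from CTPS2 at -0.11 (adjusted p = 0.463) to SHMT1 at 0.24 (adjusted p = 0.52). Among 11 tested iron genes 2 had one, with HFE at -0.36 (adjusted p = 0.621) on a low count and the iron-sensing aconitase ACO1 at 0.18 (adjusted p = 0.148). Of 13 mitochondrial chaperones and proteases 2 had one, and values ran from YME1L1 at -0.14 (adjusted p = 0.163) to SPG7 at 0.10 (adjusted p = 0.347).

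**Figure D4:**
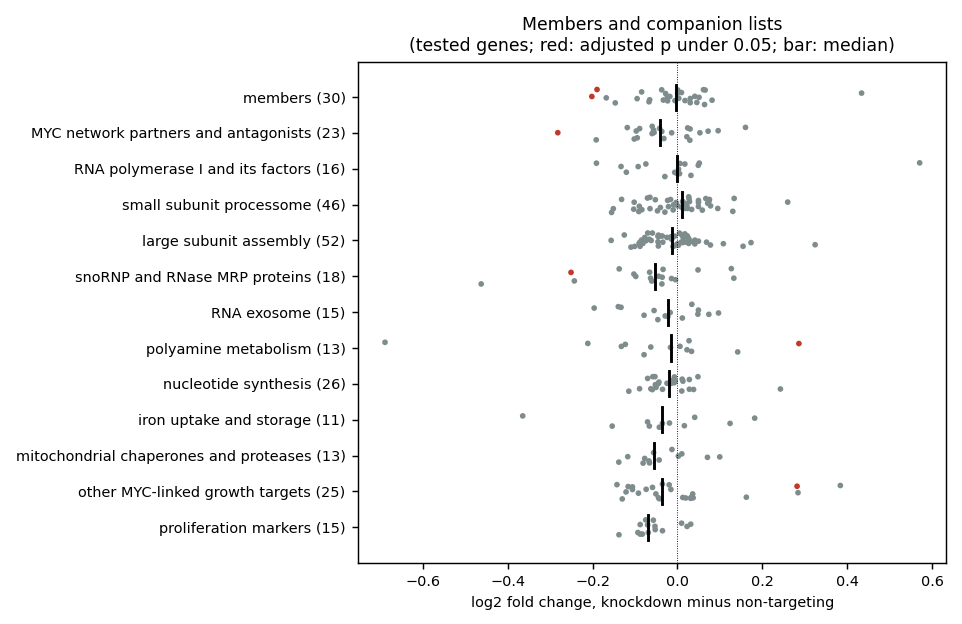
Log2 fold change (x axis, knockdown minus non-targeting) of every tested gene of the members and of 12 further lists (rows, number of tested genes in brackets), red where the limma adjusted p is under 0.05, with a black bar at each list's median. The medians of the 13 rows lie between -0.069 and 0.011, and 6 points are red.

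Further partners and antagonists of MYC were mostly level. Of 23 tested genes of the network 1 fell and 0 rose by limma, with a median of -0.04, while edgeR and DESeq2 each called 1 lower and 1 higher. MYCL, a relative of MYC that also pairs with MAX, fell to 2272 and 2518 normalised counts in the knockdown libraries, against 2975 and 2844 in the non-targeting libraries, with a log2 fold change of -0.28 ± 0.06 (SE; limma, adjusted p = 0.00866). The knockdown values lay below both non-targeting values, and edgeR and DESeq2 called it too (adjusted p = 0.0158 and 0.0182). The limma call on MYCL ended without non-targeting library 1 (-0.25, adjusted p = 0.124), with the same total (adjusted p = 0.0573) and without the variance trend (adjusted p = 0.381). The higher call was MYCBP2, a ubiquitin ligase first found by its binding to MYC, named here after its values were seen. It had 33756 and 32638 normalised counts in the knockdown libraries and 29707 and 29696 in the non-targeting libraries. Its log2 fold change was 0.16 ± 0.05 (SE), with an adjusted p of 0.0597 by limma, 0.043 by edgeR and 0.0447 by DESeq2. In limma MYCBP2 was called higher after quantile normalisation (0.215, adjusted p = 0.00747) and with the same total (0.218, adjusted p = 0.0119). Robust empirical Bayes in limma also called it (adjusted p = 0.0263). MXD1, MXD3, MXD4, MNT and MXI1, which pair with MAX and oppose MYC, stood between -0.10 and 0.07, and none of them passed. MYCN is not analysed here.

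Over the 5 further lists of ribosome biogenesis (polymerase I, both subunits, snoRNA and RNase MRP proteins, and the RNA exosome) 1 of 147 tested genes fell and 0 rose by limma, beside 3.4% and 0.851% of all tested genes, and 17 had an unadjusted p under 0.05. By edgeR 0 fell and 1 rose, the gene MDN1 given above, and by DESeq2 0 were called. The limma call was RPP25, a protein of RNase MRP and RNase P, with 1933 and 1675 normalised counts in the knockdown libraries and 2256 and 2034 in the non-targeting libraries (limma, log2 fold change -0.25 ± 0.07 SE, adjusted p = 0.0485, against 0.0878 by edgeR and 0.164 by DESeq2). RPP25 was called in 6 of the 15 alternatives, and it stood at -0.15 without knockdown library 2 (adjusted p = 0.268) and at -0.18 without non-targeting library 1 (adjusted p = 0.476). The median over the 147 was -0.013, with 83 values below 0. It was 0.004, 0.034 and 0.044 with the same median, quantile normalisation and the same total in every library. Values below 0 then numbered 68, 55 and 44. In the RNA exosome list values ran from EXOSC9 at -0.20 (adjusted p = 0.1) to DIS3 at 0.10 (adjusted p = 0.369). Among 25 other growth genes linked to MYC 1 rose and 0 fell by limma, edgeR and DESeq2 alike. Of the 25, 7 had an unadjusted limma p under 0.05, beside 17.2% of all tested genes. CCND2, a D-type cyclin, had 7862 and 7799 normalised counts in the knockdown libraries and 6232 and 6656 in the non-targeting libraries and rose by a log2 fold change of 0.28 ± 0.05 (SE; adjusted p = 0.00193 by limma). That call ended without non-targeting library 1 (0.23, limma adjusted p = 0.0964) and without the variance trend (adjusted p = 0.35). Of the 15 proliferation markers 0 were called by limma, edgeR or DESeq2 and 1 had an unadjusted limma p under 0.05, from MCM2 at -0.14 (adjusted p = 0.112) to TOP2A at 0.03 (adjusted p = 0.804). Their median was -0.069, and 80.0% of them lay below 0, beside 67.3% of the tested genes whose mean reached 2000. With the same total in every library the median was -0.011 and 8 of the 15 lay below 0.

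As a share of each library, the 30 members took 0.756% and 0.768% of all normalised counts in the knockdown libraries and 0.74% and 0.753% in the non-targeting libraries, so the ranges of the groups did not overlap but nearly met. Their summed normalised counts were 352245 and 362839 in the knockdown libraries and 361183 and 367429 in the non-targeting libraries, which did overlap. The totals of all normalised counts behind those shares were 46567996 and 47257455 in the knockdown libraries and 48837136 and 48781470 in the non-targeting libraries. The direction of the members' sum therefore depends on whether values are set against the size factors of the authors or against the library total.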

How the data were processed

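RNA was isolated with the Qiagen RNeasy Plus Mini kit, and NEBNext Ultra II served for library preparation, per the labels' protocols. STAR 2.5.1b, DESeq2 and GRCh38 are named without roles, per the submitters' processing notes. No annotation release, counting tool or strand setting is given there. Deposited values are a normalised signal, each gene's reads over a size factor set by the authors for the library. Dividing by each library's step returned whole reads for 100% of values within 0.01 of a read (largest distance 0.000156). The deposited table holds no gene under 2 reads in the first knockdown column. In the second knockdown column 2375 genes were under 2 reads, and in the non-targeting columns 2132 and 2092. Whether a low gene such as a snoRNA or marker had a row may therefore depend on the first knockdown library. Chi-square of reads per degree of freedom was 4.95 within the knockdown, 4.47 within the non-targeting group and 8.52 to 11.8 across groups, which leaves no sign of a library deposited in duplicate. Across groups it was 9.16 for the libraries numbered 1 here and 8.52 for those numbered 2. Only the latter pair shares a replicate number in the column heads. The crossed pairs had 11.8 (knockdown 1, non-targeting 2) and 10.2 (knockdown 2, non-targeting 1). Whether libraries of the same number share a source of spread was not tested.

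The test was limma 3.58.1 (R 4.3.3; empirical Bayes, variance trend) on log2(value + 1), a scale that understates changes of low genes, for 19398 genes of mean 10 or more. Benjamini-Hochberg adjustment covered all of them, at a threshold of 0.05. Among 15 alternatives were edgeR 4.0.16 and DESeq2 1.42.0 on recovered reads, which called 715 and 445 genes. Fits were tested on simulated data. Ensembl identifiers were matched to symbols (26579 found). Positions and exonic lengths are those of GENCODE 29, and promoters those of RefSeq. The members and lists were chosen with earlier results of these data known. Library values are given for MYC, MAX, called members and the extremes of each role, and for further members added after their values were seen. In other lists the called genes or the extremes are named. Some genes outside that rule are also named, such as UBTF, TCOF1, SNORD20 and the antagonists of MYC.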

Additional observations from a re-analysis of the deposited data

How the results depend on the processing

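The count of members called lower, 2 by limma, was 1 with a minimum mean of 50, with edgeR and with DESeq2, and 0 with the same median in every library, with quantile normalisation, with the same total in every library and without the mean-variance trend. With each library left out in turn it ran from 0 to 2, being 0 without either non-targeting library. No member was called higher under any of the 15 alternatives. RRP12 stayed negative under all 15, from -0.212 to -0.145, and was called in 9, and TFRC ran from -0.253 to -0.126 and was called in 5. MYC ran from -0.082 to 0.083 and was called in 0. Over all genes, 660 were called lower and 165 higher. The lower count was 334 after quantile normalisation, 293 with the same total, 379 with DESeq2 and 0 without the trend, and 334 to 960 with a library left out (334 without non-targeting library 1). The higher count was 290 with the same median, 66 with DESeq2 and 0 without the trend, and 87 to 309 with a library left out (87 and 90 without non-targeting libraries 1 and 2, 309 without knockdown library 2). Lower calls made up 80% of the calls, and 69.1%, 70.2% and 55.5% with the same median, quantile normalisation and the same total. The cause of these moves was not tested. The median of the members was -0.003, and 0.014, 0.046 and 0.055 under those 3 scalings. No paired analysis was possible because the knockdown columns share only 1 replicate number with the non-targeting columns. With 2 libraries a group, the spread of a single gene is known mainly through limma's pooling over genes, and NOP2, PPAN and the snoRNAs are limited by their read counts.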
